A study of Saccharomyces cerevisiae with 27 samples.

Results

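The genes described here are 10 budding yeast genes of purine nucleotide synthesis and salvage, led by AAH1, the gene of adenine deaminase. They were chosen by name after their log2(aged/young) values at 1, 8, 12 and 18-20 generations were known, AAH1 because it was among the largest falls. All 10 were found on the arrays, with 1 spot each, and all 10 were among the 5865 genes tested. Because those same 4 contrasts were used in the choice, the values of the 10 genes are given as a description with no test.

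The series measured replicative aging in wild-type Saccharomyces cerevisiae of the W303 background, on 27 spotted arrays read in 2 colours. Cells aged 18-20 generations (7 arrays), 12 generations (7 arrays) and 8 generations (6 arrays) were each hybridised together with young control cells of 1 generation. On the 7 arrays of the youngest age both channels held cells of 1 generation. The controls had been kept in matching conditions, the cells were separated with magnetic beads and stayed in logarithmic growth, and RNA amplified by T7 transcription was labelled. The wording of the series leaves the mating type open, no allele or treatment is named for any group, and separate cultures are stated for no arrays, so a p-value reflects array-to-array spread that may be technical in part. W303 strains commonly carry a mutation in ADE2 and then need adenine from the medium. Whether the cells here carried it, and how much adenine they were given, is not stated in the sources used here.

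Yeast builds purines on phosphoribosyl pyrophosphate (PRPP) in a chain of steps that ends at inosine monophosphate (IMP), from which one branch leads to AMP and another to GMP. Salvage enzymes recover free bases: Apt1 joins adenine to PRPP to give AMP directly, and Aah1 turns adenine into hypoxanthine, which Hpt1 then converts to IMP. Most genes of the chain are activated by the transcription factors Bas1 and Pho2 when purines are short. AAH1 is known in yeast as a gene that is expressed in dividing cells and shut down when growth stops.

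The log2 values below are log2(aged/young), so a negative value is a lower level in the aged cells than in the young control on the same array. Fitted values come from 1 model in limma over all 27 arrays, with a dye term, and are given with their standard error (SE). A gene was called at an adjusted p under 0.05 over all genes tested, two-sided. In RNA from many cells, also bead-separated ones, a lower level can come from less RNA per cell or from fewer cells of a type, which cannot be told apart.

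Marked spots, left out here, numbered 174 to 1157 out of 6580 per array, and the dyes were inverted on 1, 4, 3 and 3 arrays at 1, 8, 12 and 18-20 generations. At 18-20 generations, arrays 1 to 4 correlated with each other at r = 0.931 to 0.965 over genes, and each correlated with array 5, 6 or 7 at 0.632 to 0.730. Arrays 5 to 7 correlated with each other at 0.763 to 0.873. At 8 generations array 1 ran against arrays 2, 3 and 4 (r = -0.643, -0.580 and -0.661), whereas arrays 2 and 3 correlated at 0.823. The titles give arrays 1 to 3 the same dye orientation, but the description of array 3 does not mention its inversion. The direction of the 8-generation arrays is therefore not settled, and their values are also given with array 1 turned. The median of all genes was 0.02 at 12 generations and 0.01 at 18-20 generations.

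AAH1 (YNL141W, chromosome XIV in the array annotation) was lower in 18-20-generation cells than in young cells on all 7 arrays. The array values were -3.33, -4.10, -3.37, -3.35, -3.89, -3.52 and -2.83. The fitted value was -3.48 ± 0.19 (SE, n = 7), an 11.1-fold lower level in the aged cells, and only 3 of the 5865 genes had a lower value. At 12 generations the arrays gave -3.05, -0.97, -0.93, -2.49, -2.86, -1.60 and -1.60. All 7 lay below 0, with a fitted value of -1.92 ± 0.19 (SE, n = 7), 3.79-fold lower in the aged cells, and 6 genes lay lower. At 8 generations AAH1 ran between -0.26 and 0.38, with 3 arrays above 0 and 3 below, and the fitted value was 0.01 ± 0.21 (-0.03 with array 1 turned). At 1 generation the 7 arrays ran between -0.36 and 0.12, with a fitted value of -0.07 ± 0.20. In order of level, 1 and 8 generations overlapped, every array at 12 generations lay below all arrays of both younger ages, and the ages of 12 and 18-20 generations overlapped through 12-generation arrays 1 and 5. The difference of the fitted values, 18-20 minus 12 generations, was -1.55 ± 0.27 (SE), so 55.3% of the later value was present at 12 generations. Scaling all arrays to one spread brought the 18-20-generation value to -1.79 and the 12-generation value to -1.32, so that share depends on the processing.

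The spot of AAH1 was above background in both channels on all 27 arrays. Its log2 brightness at 18-20 generations was 10.6 ± 0.57 in the aged channel and 14.1 ± 0.41 in the young channel (SD, n = 7 each). At 12 generations it was 11.7 ± 1.08 in the aged channel and 13.6 ± 0.57 in the young channel (SD, n = 7 each). At 1 generation the same spot gave 13.1 ± 0.64 in the channel labelled first and 13.2 ± 0.60 in the other (SD, n = 7 each). The aged channel was thus dimmer than the young one at 12 and 18-20 generations, while at 1 generation the channels lay within the spread between arrays. At 18-20 generations the young channel was saturated on 1 of 7 arrays.

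**Figure D1:**
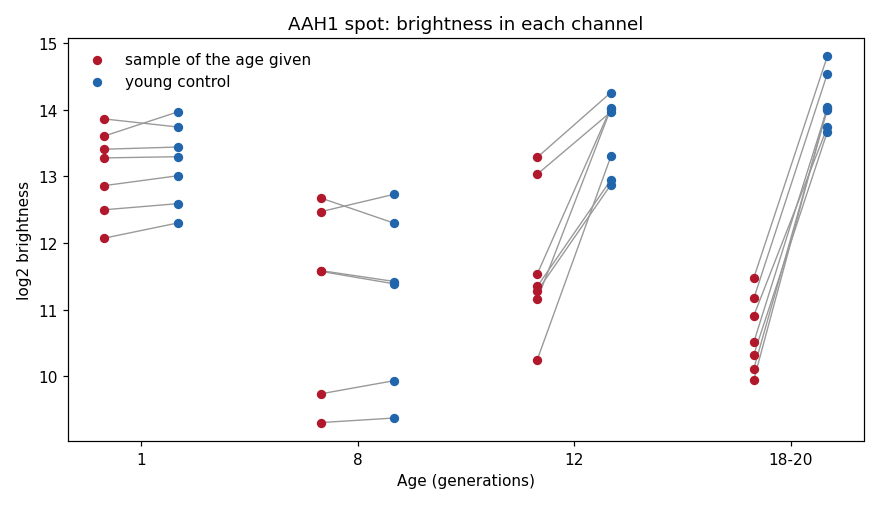
Brightness of the AAH1 spot (log2) in the channel of the age given (red, left in each pair) and in the young control channel (blue, right), with a line joining the channels of an array. The lines are close to level at 1 and 8 generations and steep at 18-20 generations, where the aged channel averaged 10.6 and the young channel 14.1.

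APT1 (YML022W, chromosome XIII), for adenine phosphoribosyltransferase, the other enzyme that uses free adenine, had the next lowest value. At 18-20 generations its arrays ran from -3.66 through a median of -2.45 to -1.79, all below 0, with a fitted value of -2.53 ± 0.21 (SE, n = 7), 5.77-fold lower in the aged cells. At 12 generations they ran from -2.44 through -1.35 to -0.13, again all below 0, with a fitted value of -1.28 ± 0.21 (SE, n = 7). At 8 generations the fitted value was 0.25 ± 0.23, and 0.22 with array 1 turned. AAH1 and APT1 were at -1.79 or lower on every 18-20-generation array, whereas each of the other 8 genes had an array at -0.67 or above. Scaled to one spread, the arrays gave -1.25 for APT1 at 18-20 generations.

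The genes of the chain to IMP form a graded set, given here in the order of the steps. ADE4 (YMR300C, chromosome XIII) encodes the amidotransferase of the first committed step. At 18-20 generations it ran from -2.51 through -1.40 to 0.32, with a fitted value of -1.25 ± 0.27, and at 12 generations all 7 arrays lay between -1.83 and -0.12, with a fitted value of -0.74 ± 0.27 (SE, n = 7 each). ADE8 (YDR408C, chromosome IV), for glycinamide ribotide transformylase, was nearest to no difference, at -0.38 ± 0.15 at 18-20 generations and -0.16 ± 0.15 at 12 generations (SE, n = 7 each). ADE6 (YGR061C, chromosome VII), for formylglycinamidine ribotide synthetase, lay below 0 on all 7 arrays at 18-20 generations, from -2.72 through -2.39 to -0.67. Its fitted value was -1.82 ± 0.24 at 18-20 generations and -0.86 ± 0.24 at 12 generations (SE, n = 7 each), where 5 of 7 arrays lay below 0. The steps of the chain thus differed in size, with ADE6 and ADE8 at the ends of the range for these 3 genes.

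ADE1 (YAR015W, chromosome I), for SAICAR synthetase, had marked spots on many arrays and was measured on 5 arrays at 18-20 generations and 4 at 12 generations. The 18-20-generation values were -2.06, -1.90, -1.81 and -1.75 on arrays 1 to 4 and 1.39 on array 7, so its fitted value of -1.23 ± 0.39 averages values of both signs. ADE13 (YLR359W, chromosome XII), for adenylosuccinate lyase, acts both in the chain and in the branch to AMP. It had a fitted value of -1.38 ± 0.28 at 18-20 generations and -0.42 ± 0.28 at 12 generations (SE, n = 7 each). ADE17 (YMR120C, chromosome XIII), for an isozyme of the last 2 steps to IMP, was at -1.02 ± 0.46 at 18-20 generations (SE, n = 7), with the largest array spread of the 10 genes (SD 2.30).

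In the branches after IMP, ADE12 (YNL220W, chromosome XIV), for adenylosuccinate synthetase, starts the way to AMP. It was at -0.64 ± 0.24 at 18-20 generations and at -0.06 ± 0.24 at 12 generations (SE, n = 7 each), with 4 of 7 arrays below 0 at the older age. GUA1 (YMR217W, chromosome XIII), for GMP synthase, ran from -2.66 through -1.74 to -0.43 at 18-20 generations, all below 0, with a fitted value of -1.62 ± 0.21 (SE, n = 6). At 12 generations its fitted value was -0.70 ± 0.19 (SE, n = 7), with 6 of 7 arrays below 0. Scaled to one spread, the arrays gave -0.82 for GUA1 at 18-20 generations, and its young-channel spot was saturated on 1 array there.

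Counted over the set, 9 of the 10 genes were called lower at 18-20 generations, all but ADE17, where 31.2% of all genes tested were called lower (64.2% in either direction). At 12 generations 5 of 10 were called lower, AAH1, APT1, ADE4, ADE6 and GUA1, where 21.5% of all genes were called lower (44.8% in either direction). With the array set, taken from clustered spot brightness, as a block, AAH1 and APT1 were called there, and ADE4 (-0.29), ADE6 (-0.34) and GUA1 (-0.31) were not. With arrays scaled to one spread ADE4 was not called there either (-0.51). Nothing is read from these counts, since the contrasts chose the genes. The median of the 10 fitted values was -1.31 at 18-20 generations and -0.56 at 12 generations. At 8 generations the 10 fitted values ran from -0.33 to 0.25, and none was called. With array 1 turned, the 8-generation values were -0.37 for ADE6, -0.32 for GUA1, 0.35 for ADE4, 0.17 for ADE1 and ADE17, -0.17 for ADE12, -0.16 for ADE13 and 0.05 for ADE8, and again none was called. Over all genes limma called 0 at 8 generations, where 748 had an unadjusted p under 0.05, and 0 at 1 generation, where 13 did.

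**Figure D2:**
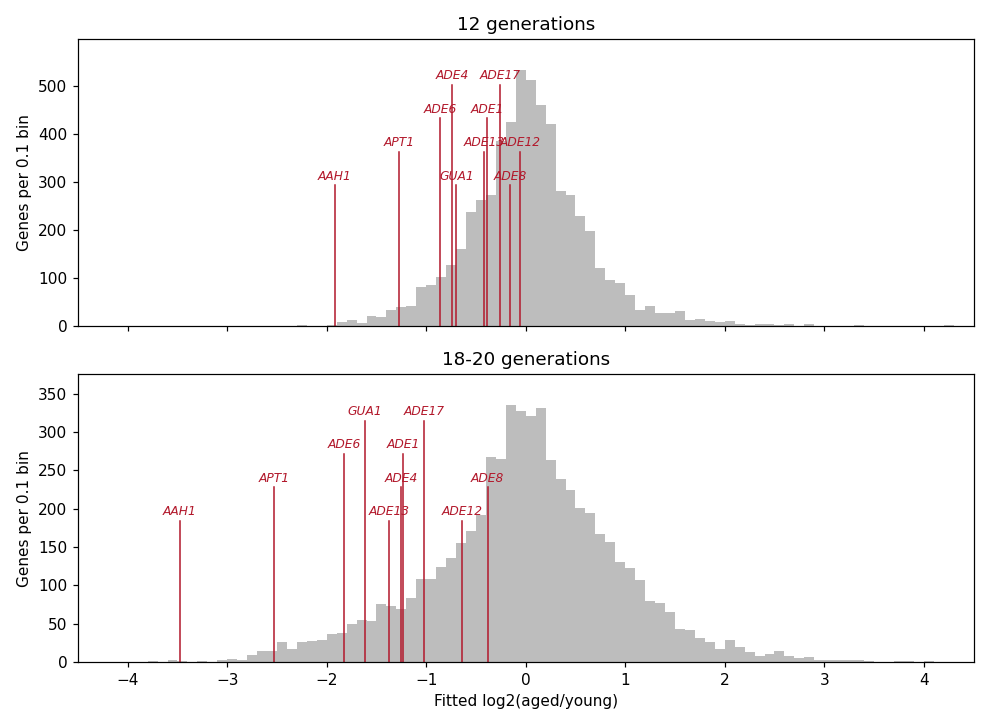
Number of genes per bin of 0.1 in fitted log2(aged/young) at 12 generations (upper) and 18-20 generations (lower), grey, with the 10 purine genes as red lines whose height carries no value. AAH1 stands at the far left edge at both ages, at -1.92 and -3.48, and the other 9 genes spread from APT1 inward to ADE12 at 12 generations (-0.06) and ADE8 at 18-20 generations (-0.38).

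The genes did not behave alike across the 18-20-generation arrays. On arrays 1 to 4 every purine gene measured was below 0, and the medians of the set were -2.02, -2.64, -2.45 and -2.06. On arrays 5, 6 and 7 the medians were -0.81, -0.30 and -0.22, with 6 of 9, 5 of 9 and 6 of 10 measured genes below 0. AAH1 and APT1 were far below 0 on all 7 arrays, whereas ADE1, ADE4, ADE8, ADE12, ADE13 and ADE17 each had at least 1 array above 0.

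ADE17 was at -3.05, -3.08, -2.73 and -2.48 on arrays 1 to 4, and at 0.96, 1.31 and 1.99 on arrays 5, 6 and 7. ADE12 was at -1.37, -1.58, -1.37 and -1.78 on arrays 1 to 4, and at 0.58, 0.48 and 0.71 on arrays 5, 6 and 7. ADE13 was at -1.36, -2.75, -2.48 and -2.67 on arrays 1 to 4, and at -0.50, 0.21 and 0.02 on arrays 5, 6 and 7. For ADE17 and ADE12 the last 3 arrays therefore gave the opposite sign to the first 4, and for ADE13 they lay near 0. ADE4 was at -1.40, -2.51, -2.37 and -1.91 on arrays 1 to 4, and at 0.32, -0.30 and -0.56 on arrays 5, 6 and 7. ADE6 was at -2.39, -2.71, -2.72 and -2.43 on arrays 1 to 4, and at -1.07, -0.67 and -0.82 on arrays 5, 6 and 7. GUA1 was at -1.98, -2.66 and -1.86 on arrays 1, 2 and 4, and at -1.16, -1.62 and -0.43 on arrays 5, 6 and 7. ADE6 and GUA1 thus kept their sign on every array that measured them, with smaller values on arrays 5 to 7.

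Dye orientation did not follow this split, since aged cells were in Cy5 on arrays 1, 3, 5 and 7 and in Cy3 on arrays 2, 4 and 6. The median red brightness of all spots was 2287.5, 2012.5, 1958.5 and 1518.5 on arrays 1 to 4, 457.5 and 334 on arrays 5 and 6, and 4484.5 on array 7. The part of brightness in these differences was not tested, and the labels give the 7 arrays a number and no other origin. In a further fit, with alike arrays averaged, 18-20-generation arrays 1 to 4 were averaged into 1. The 12-generation arrays 4 and 5 (r = 0.921) were also averaged, as were 12-generation arrays 6 and 7 (r = 0.856), and these averages carried no dye orientation. Other arrays nearly as alike were kept apart: 18-20-generation arrays 5 and 6 (r = 0.873) and 12-generation arrays 2 and 3 (r = 0.804). Arrays 5, 6 and 7 at 18-20 generations thus each counted as much as the average of arrays 1 to 4. With alike arrays averaged, 4 of the 9 purine genes still tested were called lower at 18-20 generations, AAH1, APT1, ADE6 and GUA1, where 1545 of 5791 genes were called lower. In that fit ADE12 turned to 0.0366, ADE17 to 0.37, and ADE4 and ADE13 stood at -0.62 and -0.65. Leaving out array 2 alone left 6 of the 10 genes called, where 1760 of 5860 genes were called lower. Leaving out array 3 left 7, where 1781 of 5850 genes were called lower.

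**Figure D3:**
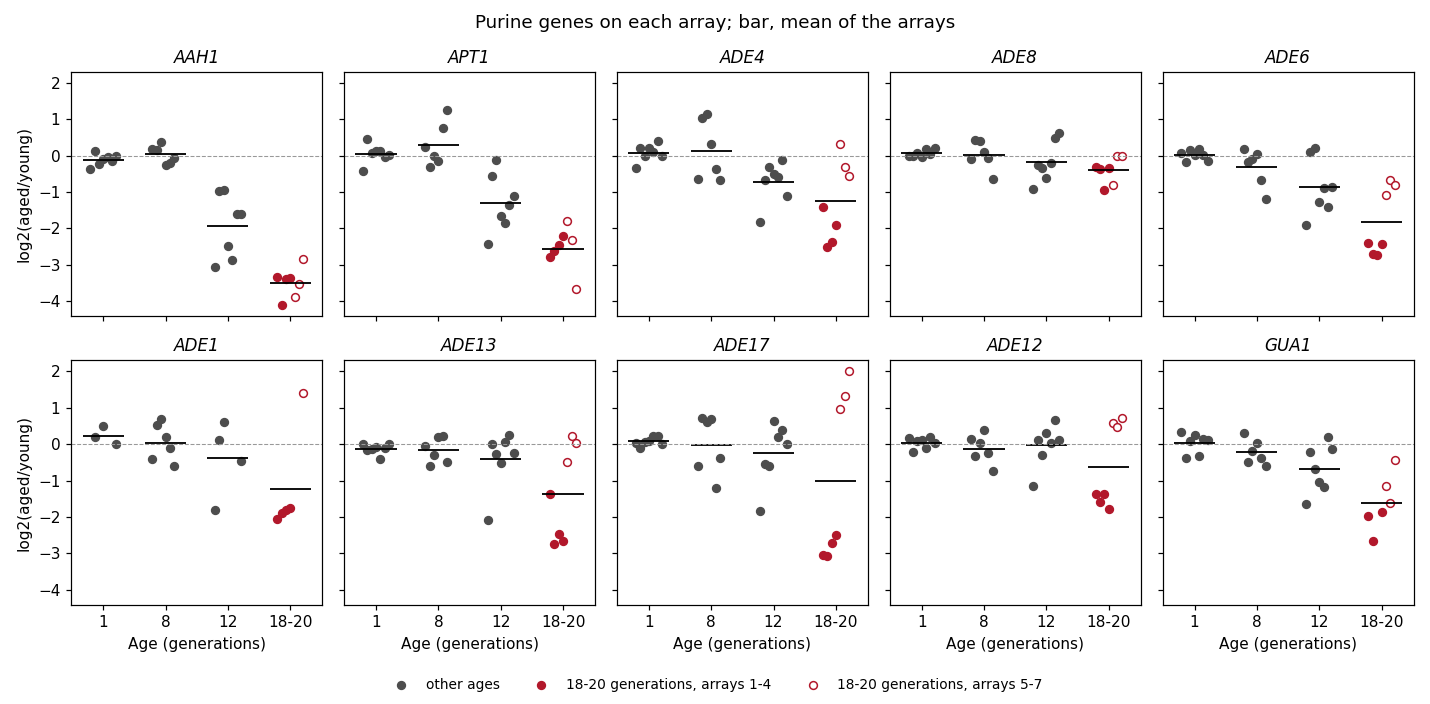
log2(aged/young) of each of the 10 purine genes on every array, by age, with the mean of the arrays as a bar. At 18-20 generations arrays 1 to 4 (filled red) and 5 to 7 (open red) overlap for AAH1 and APT1 and separate for ADE17, where they span -3.08 to 1.99.

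At 12 generations 1 array stood low for all of them. Array 1 gave the lowest value of each of the 10 genes, from -3.05 for AAH1 to -0.91 for ADE8, and its median over the set was -1.84. The medians on arrays 2 to 7 were -0.24, -0.31, -0.61, -0.60, 0.19 and -0.35. Over all genes, array 1 correlated with the other 12-generation arrays at r = 0.226 to 0.726. Its correlation was 0.853 to 0.879 with 18-20-generation arrays 1 to 4, and 0.648 to 0.675 with 18-20-generation arrays 5 to 7. Without array 1, the 12-generation value of ADE13 was -0.12 and that of AAH1 -1.74. The fall of AAH1 at 12 generations was thus present on the other 6 arrays, while ADE17 had 4 of 7 arrays above 0 there, ADE12 had 5 and ADE13 had 3.

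Of the other enzymes of the chain to IMP, 1 of 4 fell and 2 of 4 rose at 18-20 generations by limma's adjusted p. Over all genes 31.2% fell and 32.9% rose at that age. These 4 are what remained of the chain after genes had been chosen from it with their values known. This list was itself made with earlier results of these data known. The counts and p-values of these 4 are therefore descriptions and no independent test. ADE5,7, a bifunctional gene of an early and a middle step, fell, at -1.49 ± 0.21 (adjusted p = 5.54e-07, 7 of 7 arrays below 0). ADE2, for the carboxylase between ADE6 and ADE1, rose, at 0.68 ± 0.18 (adjusted p = 0.00224, 7 of 7 arrays above 0), and at 12 generations it was also at 0.68 ± 0.18 (adjusted p = 0.0039, 5 of 7 arrays above 0). ADE3, for the tetrahydrofolate synthase that supplies formyl groups, was at 0.49 ± 0.23 and did not pass at 18-20 generations (adjusted p = 0.065), with 3 of 7 arrays above 0. It is named outside the rule for named genes, to complete the list. It passed at 12 generations, at 0.59 ± 0.23 (adjusted p = 0.0391, 7 of 7 arrays above 0), but not with alike arrays averaged (0.46). ADE2 did not pass at 18-20 generations with arrays scaled to one spread (0.35) or at 12 generations with alike arrays averaged (0.42). ADE2 therefore stood above 0 on every 18-20-generation array while ADE1, ADE4 and ADE6 had negative fitted values.

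ADE16, the isozyme of ADE17, had fitted values of opposite sign at 12 and 18-20 generations, whereas those of ADE17 were negative at both (-0.26 and -1.02). ADE17 was called at neither age and lay above 0 on 3 of 7 arrays at 18-20 generations. The difference between the isozymes was not tested. At 18-20 generations ADE16 rose, at 0.41 ± 0.14 (adjusted p = 0.011, 7 of 7 arrays above 0), and at 12 generations it fell, at -0.42 ± 0.14 (adjusted p = 0.0146, 7 of 7 arrays below 0). The difference between those ages, 18-20 minus 12 generations, was 0.83 ± 0.19 (limma adjusted p = 0.00401), in a comparison where 19.7% of all genes were called. ADE16 did not pass at 12 generations with the array set as a block (-0.04), with alike arrays averaged (-0.31) or with arrays scaled to one spread (-0.30). At 18-20 generations it did not pass with arrays scaled to one spread (0.22) or without array 7 (0.27). Both isozymes are paralogs whose RNA may bind each other's spot, so their separation on these arrays is uncertain. The same holds for APT1 and APT2, which fell by 1.17 ± 0.14 on the log2 scale at 18-20 generations (adjusted p = 3.69e-08, 7 of 7 arrays below 0), beside the -2.53 of APT1. The difference between the APT1 and APT2 values was not tested.

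In the branch to GMP all 4 tested enzymes fell at both 12 and 18-20 generations, where 21.5% and 31.2% of all genes fell. At 18-20 generations IMD2 fell by 2.02 ± 0.15 (adjusted p = 9.63e-12) and IMD3 by 1.72 ± 0.18 (adjusted p = 5.58e-09) on the log2 scale, both genes for IMP dehydrogenase, with 7 of 7 arrays below 0. The guanylate kinase gene GUK1 fell by 1.88 ± 0.17 (adjusted p = 3.66e-10, 7 of 7 arrays below 0). IMD4 fell by 1.28 ± 0.17 (adjusted p = 2.71e-07, 6 of 6 arrays below 0). It was added after its value was seen, to complete the list. The IMD genes are close relatives, so their spots may share RNA. With GUA1 below 0 on every array that measured it, the enzymes from IMP to GDP had lower levels in the aged cells, and their array spread (SD 0.38 to 0.76) was smaller than the 2.30 of ADE17.

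Among 13 salvage and interconversion genes, 6 fell and 3 rose at 18-20 generations, and 6 fell and 2 rose at 12 generations. Over all genes 31.2% fell and 32.9% rose at 18-20 generations, and 21.5% fell and 23.3% rose at 12 generations. ADO1, for adenosine kinase, fell by 1.97 ± 0.15 (adjusted p = 1.84e-11), and HPT1, which takes up the product of Aah1, fell by 1.61 ± 0.18 (adjusted p = 1.04e-08), with 7 of 7 arrays below 0 for each. HAM1, for a hydrolase of abnormal purine triphosphates, fell by 1.45 ± 0.18 (adjusted p = 6.28e-08, 7 of 7 arrays below 0). The 3 that rose, named after their values were seen, were the guanine deaminase gene GUD1, at 1.40 ± 0.16 (adjusted p = 1.05e-08), the nucleoside diphosphate kinase gene YNK1, at 0.82 ± 0.23 (adjusted p = 0.00278), and the IMP nucleotidase gene ISN1, at 0.36 ± 0.11 (adjusted p = 0.00802). Each of these 3 lay above 0 on 7 of 7 arrays, and ISN1 did not pass with arrays scaled to one spread (0.19). The deaminases of the free bases thus went apart, AAH1 for adenine lower and GUD1 for guanine higher.

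All 4 tested genes of the purine-cytosine permease family fell at both ages, where 21.5% of all genes fell at 12 generations and 31.2% at 18-20 generations. TPN1 did not pass at 12 generations with the array set as a block (-0.33), with alike arrays averaged (-0.47) or with arrays scaled to one spread (-0.32). At 18-20 generations FCY2, the main carrier of adenine and hypoxanthine, fell by 2.47 ± 0.16 and its relative FCY22 by 2.49 ± 0.16 (adjusted p = 4.57e-13 for each), and TPN1, which carries pyridoxine, fell by 1.14 ± 0.19 (adjusted p = 5.85e-06), with 7 of 7 arrays below 0 for each. At 12 generations FCY2 had already fallen by 1.87 ± 0.16 (adjusted p = 7.19e-10), so it was close to AAH1 there. FCY2, FCY21 and FCY22 are related in sequence, and their spots may share RNA. Of the 5 PRPP synthetase genes, 4 fell at 18-20 generations, where 31.2% of all genes did, among them PRS3 by 1.64 ± 0.17 (adjusted p = 3.86e-09), PRS1 by 1.53 ± 0.18 (adjusted p = 6.78e-08) and PRS4 by 1.04 ± 0.18 (adjusted p = 9.52e-06), each below 0 on every array that measured it. PRS2, named outside the rule as the member that did not pass, was at 0.18 ± 0.16 (adjusted p = 0.333).

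Over these 5 lists together, 19 of 30 tested genes fell and 5 rose at 18-20 generations, where 31.2% of all genes fell and 32.9% rose, with a median of -1.15 against 0.01 for all genes. At 12 generations 18 of 30 fell and 4 rose, where 21.5% of all genes fell and 23.3% rose, with a median of -0.50 against 0.02 for all genes. Of the 32 listed, IMD1 and FUN26 were not tested. All 5 lists were made with earlier results of these data known, so these counts are descriptions. At 8 generations none of the 30 was called by limma, and 2 were called higher with array 1 turned, where 322 of 5865 genes were called higher.

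**Figure D4:**
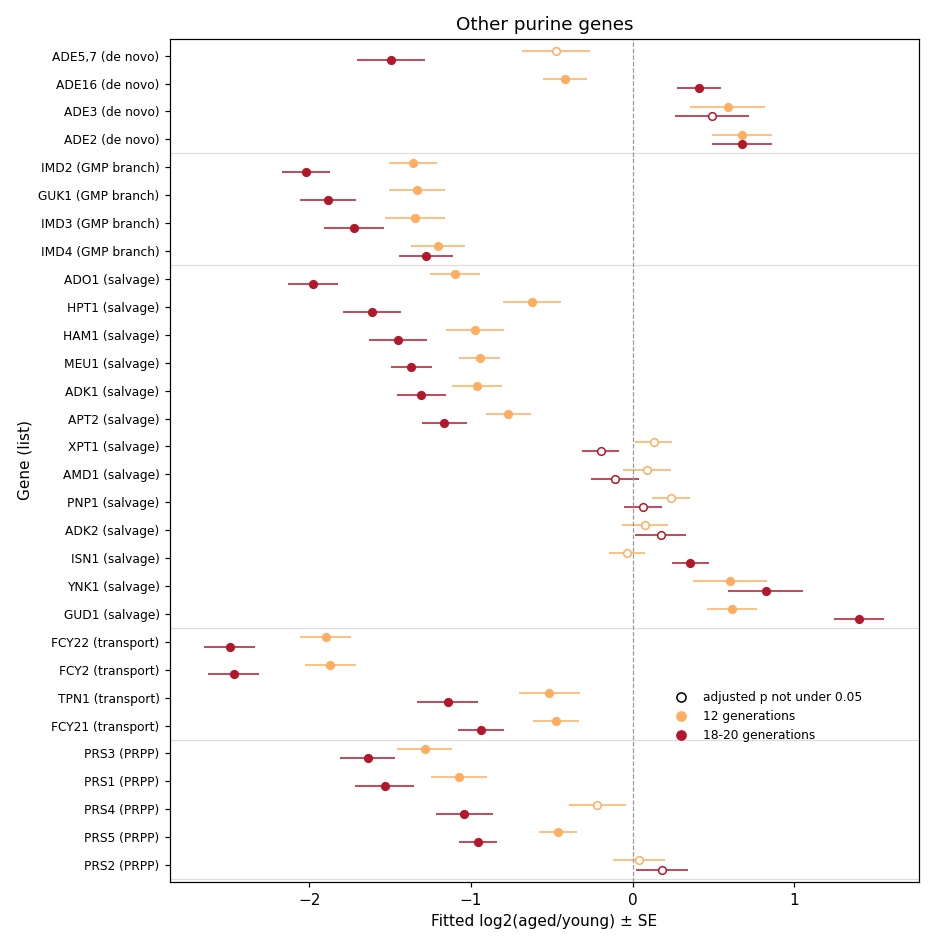
Fitted log2(aged/young) ± SE of the 30 other tested purine genes at 12 generations (orange) and 18-20 generations (red), grouped by list, with filled points for an adjusted p under 0.05. The GMP branch and transport genes lie left of 0 at both ages, and ADE2, YNK1 and GUD1 lie right of it, up to 1.40 for GUD1.

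Bas1 and Pho2 act on genes outside the purine chain as well. Of 9 tested genes in the list of these regulators and their other targets, 4 fell and 1 rose at 18-20 generations, and 2 fell at 12 generations. Over all genes 31.2% fell and 32.9% rose at 18-20 generations, and 21.5% fell at 12 generations. HIS1, for the first enzyme of histidine synthesis, fell by 2.58 ± 0.19 (adjusted p = 5.89e-12), and HIS7, for a later enzyme of that pathway, fell by 1.72 ± 0.25 (adjusted p = 9.19e-07), with 7 of 7 arrays below 0 for each. MTD1, for a methylenetetrahydrofolate dehydrogenase, fell by 1.69 ± 0.33 (adjusted p = 7.82e-05, 6 of 7 arrays below 0), but it did not pass with alike arrays averaged (-0.78). The other of the 4 was GCV2, for a subunit of glycine decarboxylase, at -0.83 ± 0.31 (adjusted p = 0.0221, 4 of 7 arrays below 0), named after its value was seen. It did not pass with alike arrays averaged (0.07), with the array set as a block (-0.32) or with arrays scaled to one spread (-0.38). Nor did GCV2 pass when any 1 of arrays 1 to 4 was left out (-0.59 without array 1). PHO2 itself rose, at 0.74 ± 0.15 (adjusted p = 1.17e-04, 7 of 7 arrays above 0). BAS1 was not tested, since its spot was unmarked on only 2 arrays at 12 generations.

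Several of these targets showed the same division of the 18-20-generation arrays as ADE17, and the values of 3 of them are given after they were seen. SHM2, for the cytosolic serine hydroxymethyltransferase, was at -1.93, -2.40, -1.91 and -1.73 on arrays 1 to 4, and at 1.19, 0.78 and 0.84 on arrays 5, 6 and 7. GCV1, for another subunit of glycine decarboxylase, was at -1.42, -1.60, -1.66 and -1.34 on arrays 1 to 4, and at 2.17, 2.55 and 2.18 on arrays 5, 6 and 7. MTD1 was at -3.08, -2.94, -2.71 and -2.86 on arrays 1 to 4, and at -0.09, -0.15 and 0.01 on arrays 5, 6 and 7. SHM2 and GCV1 changed sign between these arrays, so their fitted values of -0.75 ± 0.35 and 0.12 ± 0.40 stand for neither (limma adjusted p = 0.059 and 0.80). GCV1 passed as higher, at 1.33, with alike arrays averaged, and as lower, at -1.22, with array weights. HIS1 and HIS7 were below 0 on all 7.

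**Figure D5:**
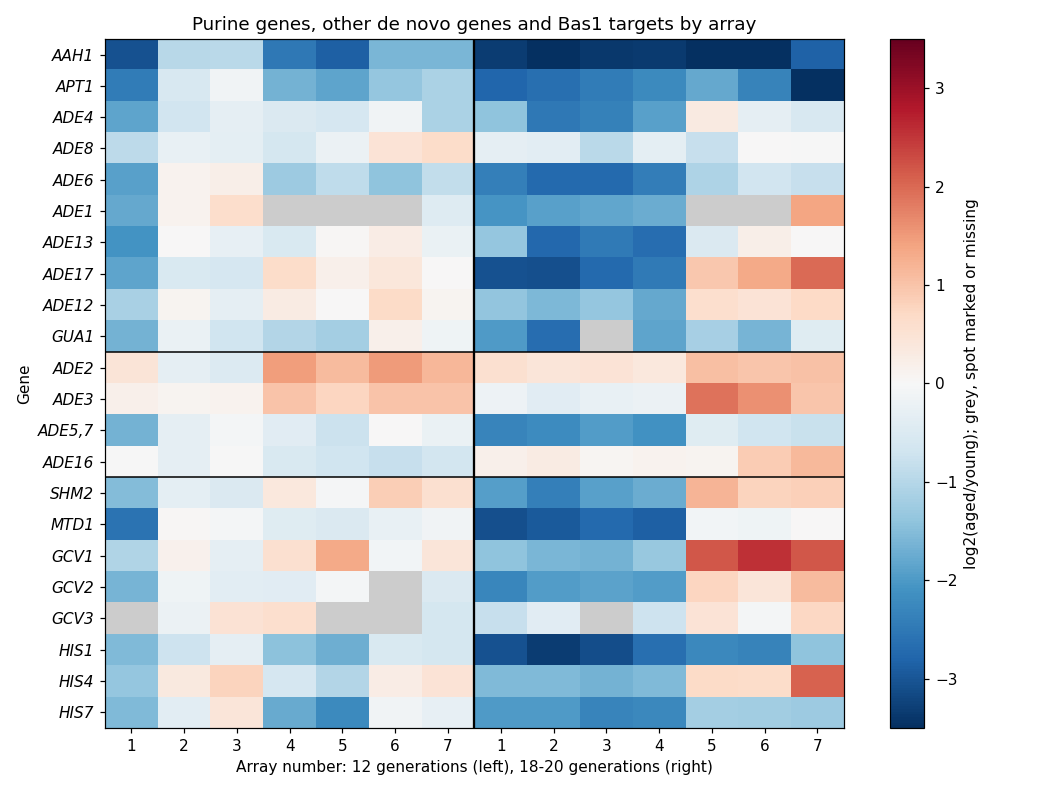
log2(aged/young) on each 12-generation array (left) and each 18-20-generation array (right), blue for lower and red for higher in aged cells, for the 10 purine genes (top), the 4 other genes of the chain to IMP (middle) and the 8 other tested Bas1 targets (bottom). At 18-20 generations ADE17, ADE12, SHM2 and GCV1 are blue on arrays 1 to 4 and red on arrays 5 to 7, while AAH1 and APT1 are blue on all 7.

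Among the genes known to act against Aah1 or its gene, SAF1 had the highest value in aged cells. Saf1 is the F-box protein that directs Aah1 protein to breakdown through the ubiquitin ligase subunit Skp1, and Ssn3 and Ssn8 are a kinase and its cyclin, known to take part in shutting down AAH1. All 4 rose at 18-20 generations and 2 of 4, SAF1 and SSN8, rose at 12 generations, where 32.9% of all genes rose at 18-20 generations and 23.3% at 12 generations. At 18-20 generations SAF1 rose, at 1.58 ± 0.17 (adjusted p = 1.65e-08, 7 of 7 arrays above 0). SKP1 was at 0.66 ± 0.20 (adjusted p = 0.00452, 7 of 7 arrays above 0) and SSN8 at 0.62 ± 0.18 (adjusted p = 0.00321, 6 of 7 arrays above 0). SSN3, named outside the rule, was at 0.41 ± 0.16 at 18-20 generations (adjusted p = 0.0273, 4 of 7 arrays above 0) and at -0.13 ± 0.16 at 12 generations (adjusted p = 0.544, 2 of 7 arrays above 0). With alike arrays averaged SAF1 still passed at 18-20 generations, and SKP1 (0.60), SSN8 (0.40) and SSN3 (0.09) did not. With the array set as a block SAF1 and SSN8 passed there, and SKP1 (0.24) and SSN3 (0.31) did not. With arrays scaled to one spread only SAF1 passed there, and SKP1 (0.31), SSN8 (0.32) and SSN3 (0.19) did not. At 12 generations SSN8 did not pass with alike arrays averaged (0.40), with the array set as a block (0.42) or with arrays scaled (0.35), and SAF1 passed in each. SSN3 also did not pass when any 1 of arrays 1 to 4 was left out (0.29 without array 4). The arrays measure RNA, so they hold no value for the Aah1 protein.

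Of 8 tested pyrimidine genes, listed for comparison, 3 fell and 2 rose at 18-20 generations, where 31.2% of all genes fell and 32.9% rose. FUR1, which salvages uracil with PRPP, fell by 2.67 ± 0.17 (adjusted p = 5.87e-13), and the CTP synthase gene URA7 fell by 2.26 ± 0.14 (adjusted p = 2.99e-13), with 7 of 7 arrays below 0 for each. The other CTP synthase gene, URA8, rose, at 1.38 ± 0.14 (adjusted p = 1.23e-09, 7 of 7 arrays above 0). The median of this list was 0.15 at 18-20 generations, against -1.15 for the 30 other purine genes and 0.01 for all genes.

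The genes whose values were nearest to those of AAH1 were sought over all arrays, by the root mean square difference in log2 over the arrays that measured both. The nearest was RPL22A, for a protein of the large ribosomal subunit, at 0.476 over 27 arrays (r = 0.954). It was followed by NIP7, an assembly factor of that subunit, at 0.490 over 25 arrays (r = 0.971), and over 27 arrays each by RPL16A at 0.549 (r = 0.962), ARB1 at 0.556 (r = 0.964) and RKI1 at 0.562 (r = 0.950). On 12-generation arrays 1 to 7 RPL22A was at -2.23, -0.55, -0.64, -1.67, -1.92, -0.99 and -1.22, lowest on array 1 as AAH1 was. These correlations are descriptions over arrays that share ages and control cells. Within the 10 genes the nearest to AAH1 was APT1, at 0.810 over 27 arrays, and the farthest was ADE17, at 1.96.

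The other purine genes had different nearest neighbours. ADE17 was nearest to SHM2 (0.517, r = 0.936 over 27 arrays), APT1 to LHP1, which binds new RNA polymerase III transcripts (0.392, r = 0.954 over 27 arrays), and ADE6 to the RNA helicase gene PRP43 (0.309, r = 0.947 over 27 arrays). ADE4 was nearest to the copper transporter gene CTR1 (0.434 over 26 arrays) and ADE8 to the chaperonin gene CCT2 (0.275 over 27 arrays). ADE12 was nearest to PXP2 (0.299 over 27 arrays), ADE13 to YOR309C (0.412 over 27 arrays) and GUA1 to YAR075W (0.328 over 26 arrays). Among the 10 genes the closest pairs were ADE1 with ADE12 (0.510 over 18 arrays) and ADE6 with GUA1 (0.513 over 26 arrays). ADE1 was measured on too few arrays for a neighbour among all genes to be sought.

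Cell type markers moved with age too. With the mating type open, it is not known which of the a-cell and alpha-cell lists, if any, belongs to the aged cells. Of 8 daughter-specific genes 7 fell and 1 rose at 18-20 generations, and the median of the list on an array ran from -1.93 to -0.92 there, against -0.08 to 0.08 at 1 generation. All 4 alpha-cell genes fell at 18-20 generations, with array medians from -2.40 to -1.24, and 4 of 7 a-cell genes rose, with array medians from 0.13 to 0.63. Over all genes 31.2% fell and 32.9% rose at this age. The a-cell gene STE6, for the pheromone exporter, was dim at 18-20 generations, with a mean log2 brightness of 7.48 in the aged channel and 7.09 in the young channel, above background on 4 and 2 of the 4 arrays that measured it. The array medians of daughter-specific and alpha-cell genes were below 0 on all 7 arrays, as those of the purine genes were. The part of cell types in the purine values was not tested.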

How the data were processed

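Each deposited scanner file gives, per the file headers, the median intensity and median local background of every spot in red (Cy5) and green (Cy3), not normalized, the percent of its pixels above background or saturated, and a mark for spots set aside. The authors' processed values, deposited as a further table and read here as log2 ratios, were joined to the spots by grid position and used only as an alternative. Their scale and direction were found against the scanner values, their normalization and centring stay unknown, and their column medians ran from -0.0625 to 0.0984. Of its 27 columns, 1-generation columns 3 and 4 and 8-generation columns 1 and 3 matched another array's scanner file better than their own.

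The scanner values were processed with limma 3.58.1 (R 4.3.3): normexp background correction used an offset of 50, log ratios were normalized by loess (span 0.3) within each array, marked spots were left out, and ratios were turned to aged over young by the labelled dye. Genes with unmarked spots on at least 3 arrays of every age were tested (5865) with lmFit and eBayes, 1 mean per age and a dye term, and p-values adjusted by Benjamini-Hochberg. In data simulated for the 18-20-generation comparison, 89.5% of 200 genes changed by a log2 of 1 were recovered among 5865, with 8 false calls. The simulated data held far fewer changed genes than the 64.2% called in the real comparison, so these rates need not hold there. Of 6388 systematic names on the arrays, 5849 matched RefSeq locus tags (used for names only).

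The 10 genes and all gene lists were chosen with earlier results of these data known. Genes outside the 10 were named by rule: up to 3 per list with the largest change among those past the threshold at 18-20 generations, plus ADE16, APT2, BAS1, PHO2 and ADE2, and nearest genes over at least 20 shared arrays. Exceptions, among them ADE3, PRS2, SSN3 and GCV2, are said where they occur. Promoter motifs and paralog identity were planned but are not analysed here. The number of arrays limits the precision.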

Additional observations from a re-analysis of the deposited data

Results flagged for a closer look

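In 183 groups of 4 to 10 arrays checked for a single array far from the others (chance gives about 1 in 20), 14 had one, and no explanation of them was tested. Among the 10 purine genes, ADE1 was at 1.39 on 18-20-generation array 7 where the other 4 arrays lay between -2.06 and -1.75, and ADE13 was at -2.09 on 12-generation array 1 (next -0.52) and at -0.41 on 1-generation array 5 (next -0.17). The low 12-generation array 1 also held MTD1, at -2.57 (next -0.51), and GCV2, at -1.63 (next -0.50). Array 7 at 18-20 generations was the highest for IMD2, at -0.69 (next -2.06), and for URA8, at 1.97 (next 1.42). At 8 generations ADE16 stood at -1.20 and GCV2 at -1.44 on array 5, and ADE2 at -1.22 and YNK1 at 2.66 on array 6. At 1 generation ADE2 was at -0.35 on array 2, ADE5,7 at -0.41 on array 1 and FCY22 at -0.33 on array 5.

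Cell type markers apart, 11 of the genes named from the lists outside the 10 differed between 18-20 and 12 generations. This was by limma's test of the difference itself, which called 19.7% of all genes. Nothing is read from the count, since many of these genes were named for a large change at 18-20 generations. The change, 18-20 minus 12 generations, was -1.60 for HIS1 (adjusted p = 2.03e-04), -1.27 for FUR1 (adjusted p = 5.82e-04), -1.17 for URA7 (adjusted p = 1.90e-04) and -1.02 for ADE5,7 (adjusted p = 0.0162). It was -0.99 for HPT1 (adjusted p = 0.00701), -0.87 for ADO1 (adjusted p = 0.00612), -0.82 for PRS4 (adjusted p = 0.0205) and -0.66 for IMD2 (adjusted p = 0.0271). Only ADE16, at 0.83 (adjusted p = 0.00401), URA8, at 0.90 (adjusted p = 0.00163), and GUD1, at 0.79 (adjusted p = 0.0127), were higher at the older age among these 11. Of the listed genes that were not named, URA4 (-0.75, adjusted p = 0.0131) and PRS5 (-0.49, adjusted p = 0.0352) passed the same limma test.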

How the results depend on the processing

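At 18-20 generations 4 of the purine genes were called lower with alike arrays averaged, where 1545 of 5791 genes tested were. With arrays scaled to one spread 6 were, where 1185 of 5865 genes were, and 6 with the array set as a block, where 1917 of 5865 were. With alike arrays averaged ADE12 turned to 0.0366 and GCV2 to 0.0717, and with array weights GCV1 turned to -1.22. Between 6 and 10 purine genes were called with single arrays left out, where 61.3% to 66.4% of all genes were called in either direction. At 12 generations 2 purine genes, AAH1 and APT1, were called with the array set as a block, where 1190 of 5865 genes were called lower. With single arrays left out 4 to 5 were called there, where 39.8% to 48.1% of all genes were called in either direction. The array set was taken from clustered spot brightness (8-generation arrays 1 to 4 and 18-20-generation array 7). At 8 generations the calls depended on the setting: 1 purine gene was called with array weights, and 3, 1 and 2 of the other 30 with array weights, the array set and array 1 turned (0 to 1 with single arrays left out). Of all genes tested at 8 generations 24.6% were called with array weights, 6.19% with the array set, 9.07% with array 1 turned (322 higher and 210 lower), 0.0682% with arrays scaled, 0.0171% with print-tip loess, and 0% to 6.72% with single arrays left out, the highest without array 1. At 1 generation 1.24% were called with arrays scaled, 0.273% with the array set, 0.0341% with array weights and 0.0173% with alike arrays averaged, and at 18-20 generations 40.9% with arrays scaled. The cause of these changes was not tested. AAH1 at 18-20 generations ran from -3.59 to -1.79 over all alternatives. With the array number as a replicate block, 10 purine genes were called at 18-20 generations, where 1798 of 5865 genes were called lower. In that fit 5 were called at 12 generations, where 1232 of 5865 genes were called lower, and 0.153% of all genes were called at 8 generations. The deviations of same-numbered arrays correlated at -0.28 to 0.23 over 39 pairs (13 above 0.1). Of the 27 arrays, 2 correlated best with their own number. Whether same-numbered arrays belong together is not stated, and these correlations cannot decide it, since arrays can be alike for other reasons.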
